A study of Homo sapiens with 6 samples.

Results

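Hsa-miR-17, hsa-miR-20a, hsa-miR-20b, hsa-miR-106a, hsa-miR-106b, hsa-miR-93, hsa-miR-18a and hsa-miR-18b are the miRNAs of the miR-17 and miR-18 seed families that come from the miR-17/92, miR-106a/miR-363 and miR-106b/25 clusters. They were taken by the probe name on the array, which gave 8 probes of the 1719 human miRNA probes, each with 1 spot per array. The cells were HK-2, an established line of human proximal tubular epithelium immortalised with papillomavirus genes. All 6 samples were kept for 48 h in medium with 0.2% fetal calf serum. The 3 treated samples also had 5 µg/ml of aristolochic acid, a plant toxin that forms DNA adducts in the tubule, and the 3 control samples had none. The labels do not say whether each replicate was its own culture. The p-values thus weigh a difference against the scatter of these 6 samples, and that scatter may be purely technical. In a bulk extract, fewer cells with a miRNA and less of it per cell cannot be told apart.

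A miRNA finds its targets mainly by its seed, bases 2 to 8 from the 5′ end, so miRNAs of 1 seed share many targets. The miR-17/92 cluster is cut from 1 long transcript, MIR17HG, that MYC and E2F factors activate and p53 can repress. The miR-106a/miR-363 cluster on the X chromosome is a duplicate of it, and the miR-106b/25 cluster sits in an intron of MCM7, a gene for DNA replication. Known targets of the miR-17 seed include the cell cycle inhibitor CDKN1A (p21) and the apoptosis gene BCL2L11, and miR-18a is known to target the matrix gene CCN2. In the kidney the miR-17/92 cluster is known for nephron progenitor growth and for cyst growth.

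The mature sequences are shown because the comparison turns on how close these miRNAs are to each other. They are from RefSeq (GRCh38.p14), 5′ to 3′, all 8 names were matched to the 5′ arm of their hairpin, and capitals mark the seed.
miR-17: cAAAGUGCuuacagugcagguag
miR-106a: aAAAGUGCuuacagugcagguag
miR-20a: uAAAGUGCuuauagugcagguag
miR-20b: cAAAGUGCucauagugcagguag
miR-93: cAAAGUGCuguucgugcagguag
miR-106b: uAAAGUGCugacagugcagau
miR-18a: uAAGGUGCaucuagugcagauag
miR-18b: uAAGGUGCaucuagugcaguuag

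The first 6 carry the seed AAAGUGC and the last 2 the seed AAGGUGC. After the seed, the longest run that all 8 hold is gugcag, 6 bases. Counted from 1 at the 5′ end, miR-106a differs from miR-17 by C1A alone, and miR-18b differs from miR-18a by A20U alone. MiR-20a differs from miR-17 by C1U and C12U. MiR-20b differs from miR-20a by U1C and U10C. The probe sequences were not used here, so how far a probe also binds the neighbouring miRNA was not tested.

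By cluster, miR-17 lies at chr13:91350618-91350640, miR-18a at chr13:91350756-91350778 and miR-20a at chr13:91351072-91351094, all on the plus strand. On the minus strand of the X chromosome, miR-106a lies at chrX:134170244-134170266, miR-18b at chrX:134170084-134170106 and miR-20b at chrX:134169850-134169872. MiR-106b at chr7:100094043-100094063 and miR-93 at chr7:100093815-100093837 are on the minus strand of chromosome 7.

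All 8 miRNAs were detected on all 6 arrays, by the authors' own criterion of a kept background-subtracted intensity. Of the 625 probes tested, 0.96% passed the threshold of an adjusted p of 0.05 in limma (0.8% higher, 0.16% lower), and 0 of the 8 miRNAs did. Those 5 higher and 1 lower probes became 38 and 207 with 75th percentile scaling and 310 and 0 without normalization. On the spike-ins, fitted on the 503 probes that every array detected, they became 20 and 0. At an unadjusted p under 0.05 there was 1 of the 8, miR-106a, where the share over all tested probes was 15%. The treated arrays were brighter. Their subtracted background was between 53.3 and 61.8 against 50.6 to 51.8 on the control arrays, and the background-subtracted log2 intensity of the 503 probes that every array detected was shifted upwards by 0.45 in the median. The spike-in spots were brighter on the treated arrays too, by 0.26 in the mean log2 intensity. Array brightness and treatment thus cannot be told apart, and the sign of a small difference depends on the scaling. Levels are therefore given as scaled intensity, the background-subtracted intensity with the median of those 503 probes set to 25 on each array. Tests were run on log2 values after normexp background correction with an offset of 50 and quantile normalization. The offset draws the log2 differences of dim probes, such as those of miR-18a and miR-18b, towards 0. Intensities of different probes are not set against each other, because probes differ in brightness.

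Of 10 markers of tubule or epithelium, 8 were detected on all 6 arrays. MiR-204, a tubule miRNA, was detected on 2 arrays only. Among the markers of other cell types, the blood marker miR-451 and the neural marker miR-124 were detected on no array, while 2 of 3 muscle, 2 of 3 neural and 1 of 3 blood miRNAs and the endothelial miR-126 were detected on all 6.

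**Figure D1:**
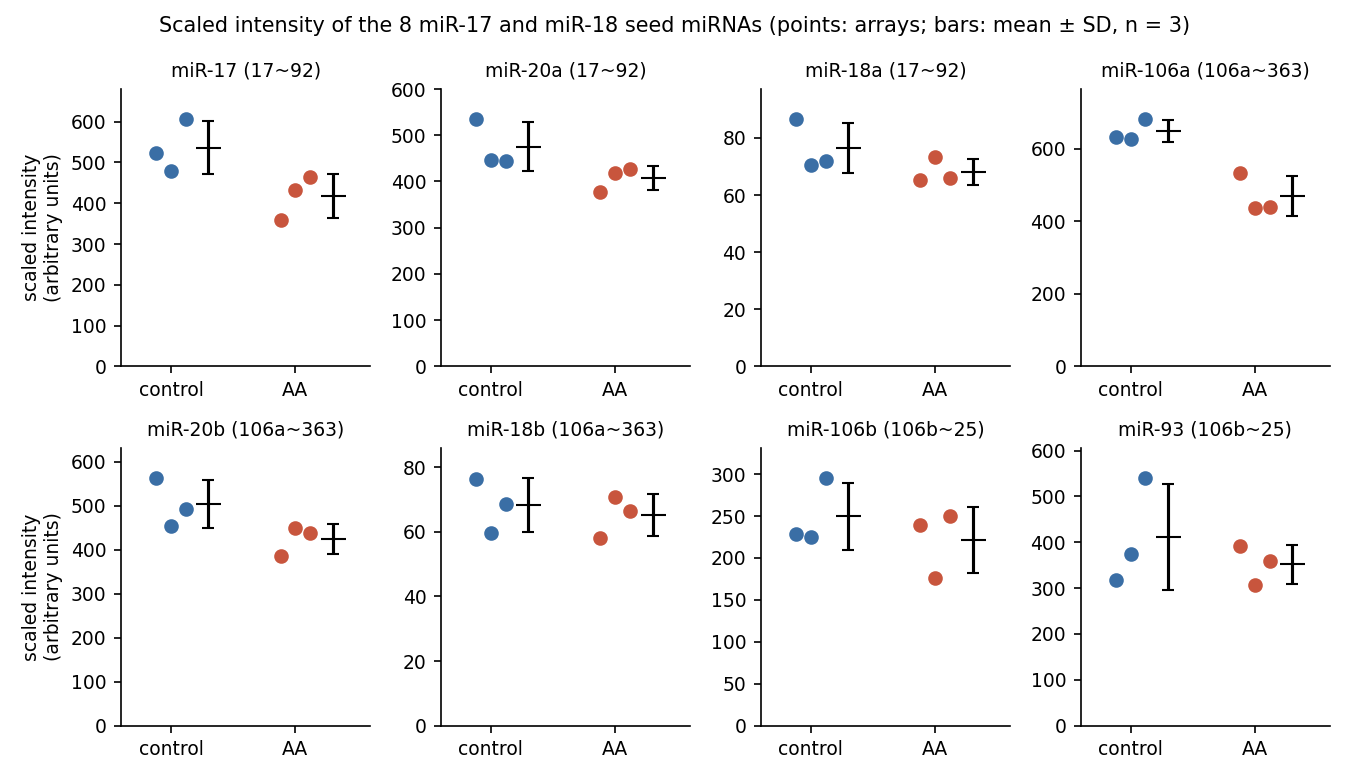
Scaled intensity (arbitrary units, linear axis from 0) of the 8 miRNAs on the 3 control arrays and the 3 arrays with aristolochic acid (AA). Points are arrays and bars are the mean ± SD (n = 3). The groups do not overlap for miR-17, miR-20a, miR-106a and miR-20b, and they overlap for the other 4.

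MiR-106a, the first miRNA of the X-linked cluster, had the lowest difference of the 8. Its scaled intensity was 633, 627 and 682 on the control arrays and 532, 435 and 439 on the treated arrays. All 3 treated arrays lay below all 3 control arrays. The means were 647 ± 30.2 and 469 ± 54.8 (SD, n = 3 per group), or 1.39-fold lower in the geometric mean. In the limma fit its log2 difference, treated minus control, was -0.33 (SE 0.056, 95% interval -0.47 to -0.20 before adjustment, adjusted p = 0.0644), which did not pass. It was the third lowest difference of the 625 tested probes and the seventh smallest p. The adjusted p crossed the threshold without a filter on dim probes (0.0374) and with array weights (0.0446), and it was 0.0374 to 0.899 over all 22 alternatives. With a trend and robust variance model the limma adjusted p was 0.145 (SE 0.104). On the scaled intensity it was 0.188 (SE 0.150).

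MiR-17, which heads the chromosome 13 cluster, came next in the size of its difference. Its scaled intensity was 522, 479 and 607 on the control arrays and 359, 433 and 464 on the treated arrays. The groups did not overlap on this scale, but control replicate 2 and aristolochic acid replicate 3 were close. The means were 536 ± 65.3 and 419 ± 54.1, and the limma log2 difference was -0.25 (SE 0.12, adjusted p = 0.374). After quantile normalization the groups overlapped.

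MiR-20a, from the same transcript as miR-17, had 536, 447 and 443 in control and 378, 418 and 427 in treated samples, with means of 475 ± 52.3 and 407 ± 25.7. Control replicate 1 was above the other 5 arrays. MiR-20b, its X-linked counterpart, had 563, 454 and 493 in control and 385, 449 and 439 in treated samples, with means of 503 ± 54.9 and 424 ± 34.0. The 2 miRNAs had the same array at the top, control replicate 1, and the same at the bottom, aristolochic acid replicate 1. Their limma log2 differences were -0.11 (SE 0.093, adjusted p = 0.652) and -0.12 (SE 0.095, adjusted p = 0.618).

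On the scaled intensity, then, treated arrays lay below control arrays without overlap for 4 of the 8 miRNAs, where 13.9% of all tested probes did so. After quantile normalization this held for 1 of the 8, miR-106a, where the share over all tested probes was 10.7% (8.81% lay above control without overlap, and 0 of the 8). On the background-subtracted intensity with no scaling it held for 0 of the 8 (0.801% of all tested probes), and 1 of the 8, miR-18b, lay above control without overlap (47.1% of all tested probes).

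MiR-106b and miR-93 come from the MCM7 intron. MiR-106b had a scaled intensity of 229, 225 and 295 in control and 239, 176 and 250 in treated samples. MiR-93 had 317, 375 and 540 in control and 391, 306 and 358 in treated samples. The groups overlapped for both, with control replicate 3 highest and aristolochic acid replicate 2 lowest of the 6 arrays. The means were 250 ± 39.7 and 221 ± 39.6 for miR-106b, and 411 ± 116 and 352 ± 42.9 for miR-93. The limma log2 difference was -0.12 (SE 0.11, adjusted p = 0.668) for miR-106b and -0.16 (SE 0.15, adjusted p = 0.676) for miR-93. Leaving out 1 array moved the first from -0.19 (without aristolochic acid replicate 3) to -0.015 (without aristolochic acid replicate 2). It moved the second from -0.31 (without control replicate 1) to -0.0083 (without control replicate 3). The 95% interval of miR-93, from -0.53 to 0.20, was the widest of the 8.

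The miR-18 seed differs from the miR-17 seed by 1 base, A4G. MiR-18a, from the chromosome 13 cluster, had a scaled intensity of 86.7, 70.7 and 72.1 in control and 65.3, 73.2 and 65.8 in treated samples. MiR-18b, from the X-linked cluster, had 76.5, 59.7 and 68.7 in control and 58.1, 70.8 and 66.5 in treated samples. The groups overlapped for both. The means were 76.5 ± 8.90 and 68.1 ± 4.44 for miR-18a, and 68.3 ± 8.37 and 65.1 ± 6.47 for miR-18b. The limma log2 difference was -0.054 (SE 0.056, 95% interval -0.19 to 0.080, adjusted p = 0.702) for miR-18a. For miR-18b it was 0.0063 (SE 0.061, 95% interval -0.14 to 0.15, adjusted p = 0.965).

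Taken by seed, the 6 miR-17 seed miRNAs had differences below 0 in the limma fit, with a median of -0.14. The 2 dimmer miR-18 seed miRNAs lay on either side of 0, with a median of -0.024. On the scaled intensity, without the offset, all 8 were below 0, from -0.47 for miR-106a to -0.066 for miR-18b. MiR-18a was at -0.16 there, beside -0.18 for miR-106b and -0.19 for miR-93. In the limma fit with the offset, the 8 together had a median of -0.12 with 7 below 0. Over all tested probes the median was -0.011, with 55.2% below 0. By cluster the medians were -0.11 for the 3 members of miR-17/92, -0.12 for the 3 of miR-106a/miR-363 and -0.14 for the 2 of miR-106b/25. The cluster medians thus lay closer to each other than miR-106a and miR-18b of the X-linked cluster, which were at -0.33 and 0.0063. Medians of 2 or 3 members are set here against single members, so the smaller spread is not a result about the clusters. These are descriptions, since the members share sequence and no test was made over the list. Cross-binding between the probes was not tested, so the chromosome 13 and X clusters may not have been measured apart.

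**Figure D2:**
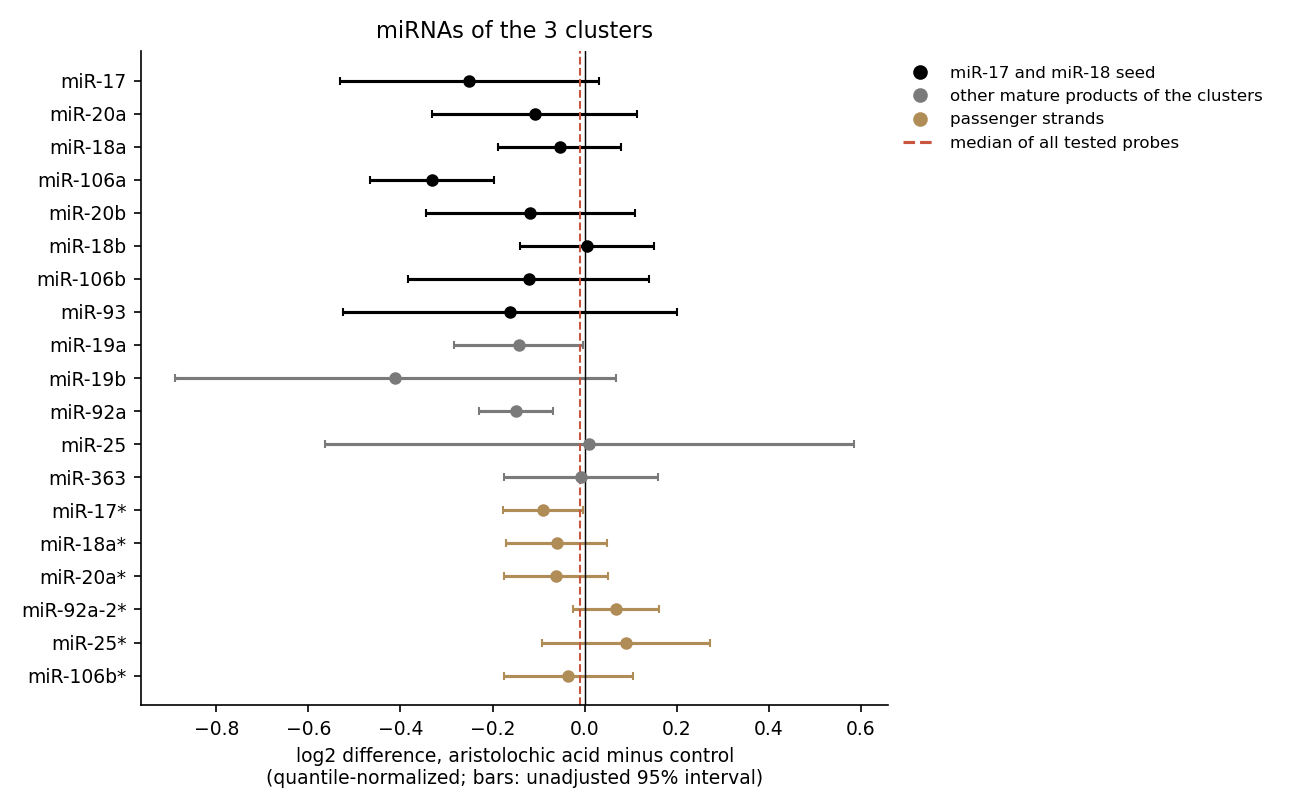
Log2 difference (aristolochic acid minus control, limma on quantile-normalized values) of the tested miRNAs of the 3 clusters, with unadjusted 95% intervals. Black points are the 8 miR-17 and miR-18 seed miRNAs, grey the other mature products and brown the passenger strands. The black points run from -0.33 for miR-106a to 0.0063 for miR-18b, and the dashed line is the median of all tested probes at -0.011.

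The level of every member depended on how the arrays were scaled. With the background-subtracted intensities and no scaling, the log2 differences of the 8 ran from 0.054 for miR-106a to 0.46 for miR-18b, with a median of 0.32, while the median of those 503 probes was 0.45. Scaled on the spike-ins, the median of the 8 was 0.062 beside 0.20 for those 503 probes. On the authors' globally normalized values it was -0.34 beside -0.21 for the same probes. These scalings and the scaled intensity differ by 1 constant for all probes, so each puts 7 of the 8 below the median of those 503 probes. With the offset of 50 and no normalization between arrays, the median of the 8 was 0.25 beside 0.14 for the 625 tested probes, and 1 of the 8 was below. There, miR-18a, miR-18b and miR-106b passed as higher (limma adjusted p = 0.0405, 0.0260 and 0.0420; over their 22 alternatives, 0.0405 to 0.978, 0.0260 to 0.991 and 0.0420 to 0.949), where 310 probes passed in all. MiR-106a was the lowest of the 8 in 22 of the 23 settings, and the exception was the fit without aristolochic acid replicate 3, where miR-17 was. Many of these settings could not alter this order. They differed by 1 constant for all probes, or only in the filter, variance model or replicate block.

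**Figure D3:**
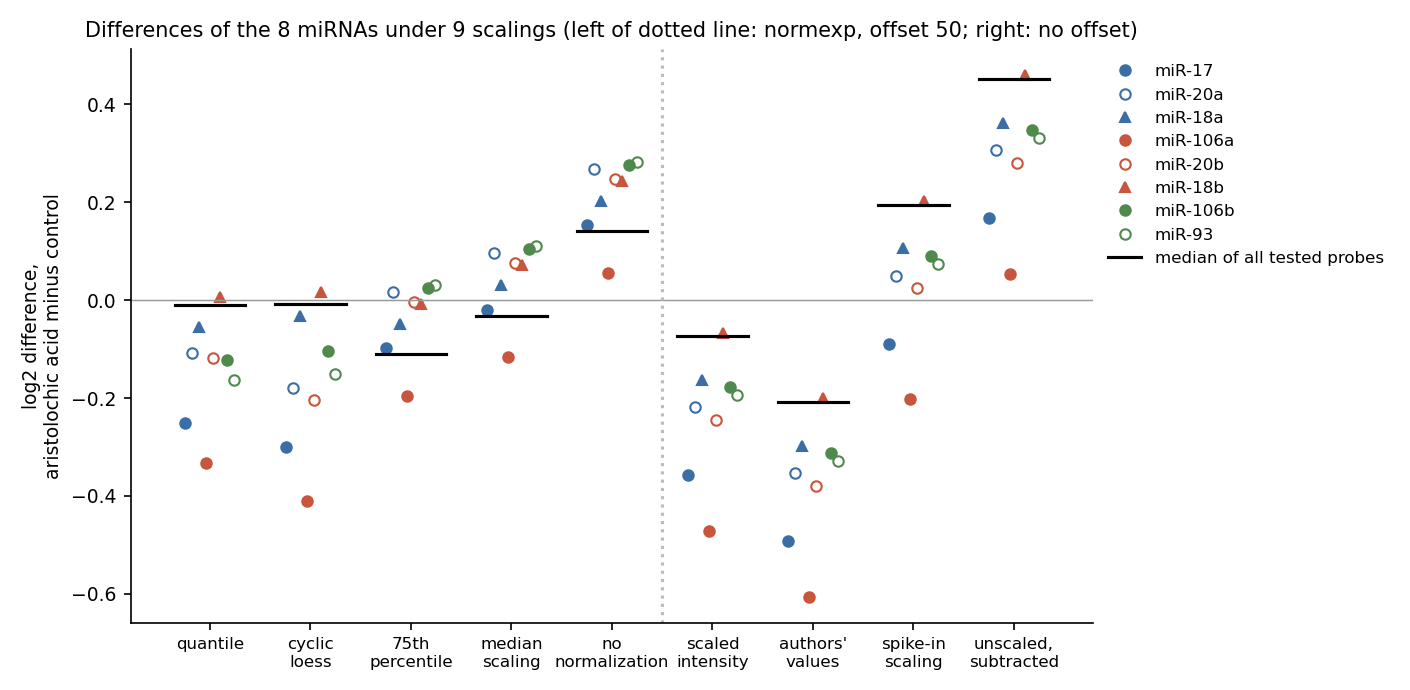
Log2 difference (aristolochic acid minus control) of the 8 miRNAs under 9 scalings, in blue for the miR-17/92, red for the miR-106a/miR-363 and green for the miR-106b/25 cluster, with triangles for the miR-18 seed. Black bars are the median of all tested probes, which are the 503 detected on every array for the 4 scalings without offset. MiR-106a (filled red circle) is the lowest of the 8 under each of the 9, while the whole set moves from below 0 on the authors' values to above 0 on the unscaled intensities.

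Near-identical members were compared by how the ratio of 2 miRNAs on 1 array changed, which no constant factor per array can move. The tests used the quantile-normalized values, where the offset and the normalization still bear on a ratio, and the background-subtracted intensity served as an alternative. Of the pairs within a seed, 9 were at an edit distance of at most 3. With 3 arrays against 3, the 2-sided exact permutation test cannot give a p below 0.1. The smallest exact permutation p on the quantile scale was 0.2, for the change of miR-20a against miR-106a (0.22 on the log2 scale), of miR-106a against miR-20b (-0.21) and of miR-18a against miR-18b (-0.061). Adjusted over the 9 pairs it was 0.6 for each of these and 0.9 for the other 6 (exact permutation test). On the background-subtracted intensity the smallest exact permutation p was again 0.2, for miR-18a against miR-18b, with 0.3 for miR-20a against miR-106a and for miR-106a against miR-20b. The change of miR-20b against miR-93 was 0.045 on the quantile scale and -0.050 there. The log2 ratio of miR-17 to miR-106a changed by 0.081, with an SD of 0.11 among control and 0.28 among treated arrays (exact permutation p = 0.8). That of miR-20a to miR-20b changed by 0.010, with an SD of 0.034 and 0.031 (exact permutation p = 0.6).

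The closest sequences did not have the steadiest ratio. On the background-subtracted intensity, the log2 ratio of miR-17 to miR-106a, which differ by C1A, spanned 0.65 over the 6 arrays. Relative to its mean over the 6 arrays, it was -0.056, -0.17 and 0.054 on the control arrays and -0.35, 0.21 and 0.30 on the treated arrays. Aristolochic acid replicate 1 stood at the low end and the other treated arrays at the high end, because this array had the lowest miR-17 and the highest miR-106a of the treated arrays in scaled intensity. The ratio of miR-20a to miR-20b spanned 0.13, the narrowest span of the 28 pairs. That of miR-18a to miR-18b, which differ by A20U, spanned 0.26.

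Across all 28 pairs, the within-group SD of the log2 ratio was between 0.040 for miR-20b with miR-18b and 0.41 for miR-18a with miR-93. The 6 lowest values, up to 0.094, were the 6 pairs among miR-20a, miR-20b, miR-18a and miR-18b, which come from both seeds and from the chromosome 13 and X clusters. The ratio of miR-17 to miR-106a ranked nineteenth, with an SD of 0.26. The pair from the MCM7 intron, miR-106b with miR-93, had an SD of 0.18 and ranked ninth. No test was made of this order, and the dimmer miR-18 probes and the brighter miR-17 seed probes share arrays and labelling.

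**Figure D4:**
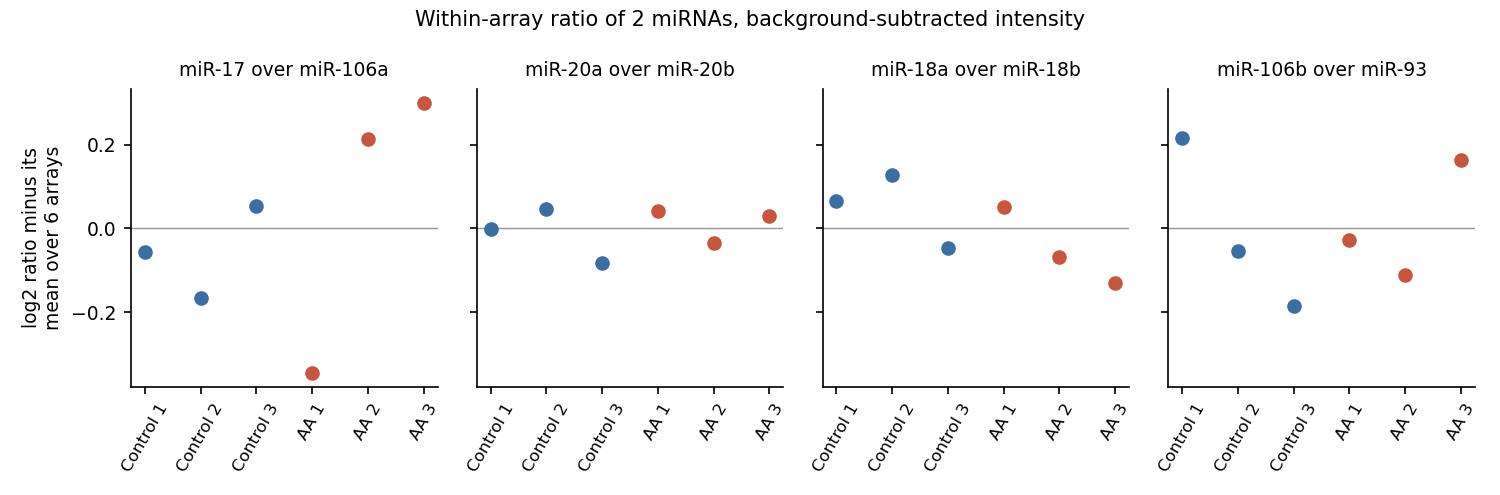
Log2 ratio of 2 miRNAs on each array, background-subtracted intensity, minus the mean of that ratio over the 6 arrays, with control arrays in blue and aristolochic acid (AA) arrays in red. The ratio of miR-17 to miR-106a spans 0.65 and that of miR-20a to miR-20b spans 0.13.

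Arrays of 1 group also differed, and the miRNAs of a cluster did not always share the array at the top or at the bottom. In log2 scaled intensity relative to the mean over the 6 arrays, miR-106b was at 0.34 on control replicate 3, its highest array, and at -0.40 on aristolochic acid replicate 2, its lowest. MiR-93 was at 0.53 and -0.29 on these arrays. MiR-25, the remaining product of the MCM7 cluster, with a different seed, was at 0.60 and -0.70. These were the highest and the lowest arrays of all 3 MCM7 miRNAs, and of the X-linked miR-106a too, at 0.31 and -0.34. On aristolochic acid replicate 3, however, miR-25 was nearly as high (0.58) and miR-106a nearly as low (-0.32). MiR-106a was at 0.20, 0.19 and 0.31 on the control arrays, where miR-93 was at -0.24, 0.0026 and 0.53, so sharing these 2 arrays is not sharing a profile. MiR-17 was highest on control replicate 3 (0.37) and lowest on aristolochic acid replicate 1 (-0.39). MiR-20a, miR-18a, miR-20b and miR-18b, from the chromosome 13 and X clusters, had control replicate 1 highest, at 0.20 to 0.29, and aristolochic acid replicate 1 lowest, at -0.26 to -0.14. This is a description of 6 arrays, since no label sets replicates of 1 group apart.

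**Figure D5:**
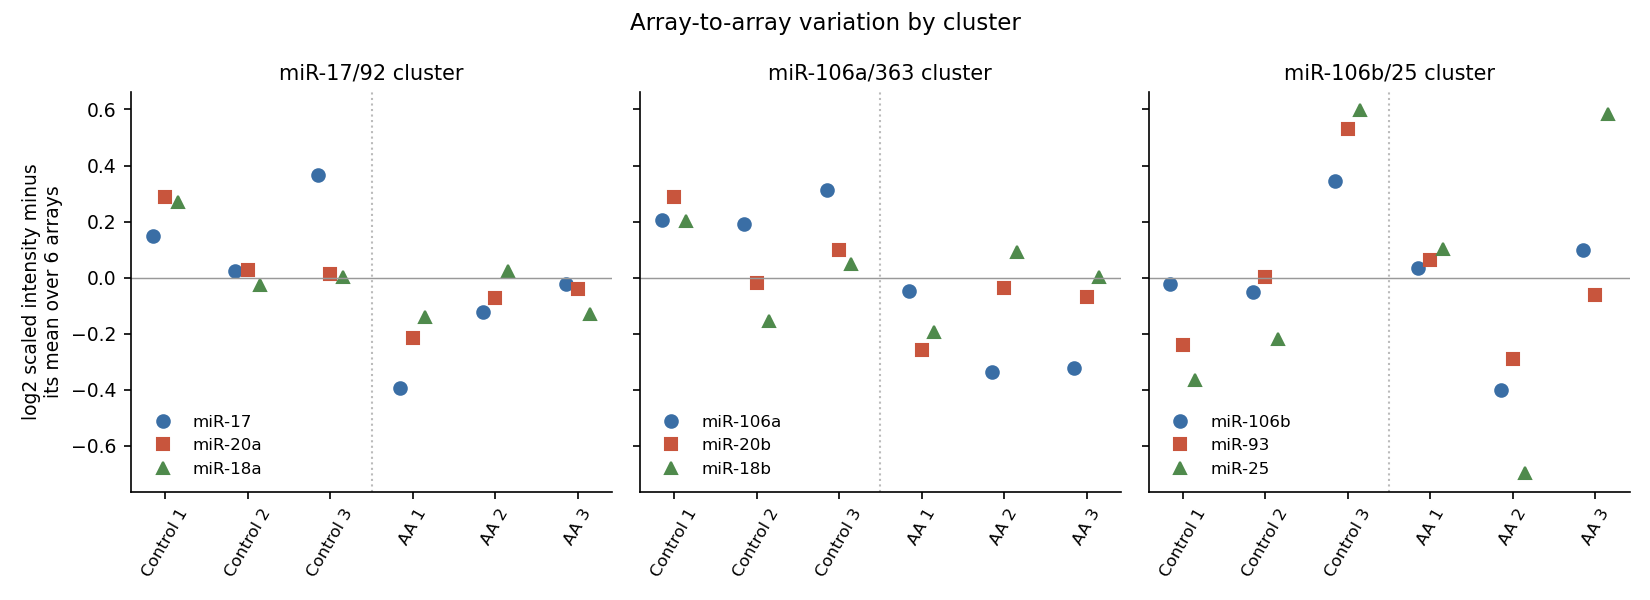
Log2 scaled intensity minus its mean over the 6 arrays, for each of 3 miRNAs of each cluster, with the control arrays left and the aristolochic acid (AA) arrays right of the dotted line. MiR-106b, miR-93, miR-25 and miR-106a are highest on control replicate 3 and lowest on AA replicate 2. On AA replicate 3, miR-25 is nearly as high and miR-106a nearly as low. MiR-20a, miR-18a, miR-20b and miR-18b are highest on control replicate 1 and lowest on AA replicate 1.

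The other mature products of the 3 clusters, miR-19a, miR-19b, miR-92a, miR-25 and miR-363, were all tested, and 0 of 5 passed. Their median log2 difference was -0.14, with 4 below 0. MiR-92a had -0.15 (limma adjusted p = 0.114) and miR-19a had -0.14 (limma adjusted p = 0.321), and for these 2 of 5 the treated arrays lay below the control arrays on both the quantile and the scaled values (10.7% and 13.9% of all tested probes). On the unscaled background-subtracted intensity, both lay above control without overlap (47.1% of all tested probes). MiR-19b had -0.41 with an SE of 0.20 (limma adjusted p = 0.382). Of the 15 passenger strands, the arms of the hairpins that are mostly degraded, 6 were tested and 0 passed. Their median was -0.048, on values where the offset draws dim probes towards 0. The tested strands were miR-17*, miR-18a* and miR-20a* of miR-17/92, miR-92a-2* of miR-106a/miR-363, and miR-25* and miR-106b* of miR-106b/25. MiR-17*, the other arm of the miR-17 hairpin, had a scaled intensity of 29.4, 25.3 and 25.5 in control and 19.1, 24.3 and 19.9 in treated samples. It was the only 1 of the 6 tested strands whose groups did not overlap on this scale (13.9% of all tested probes lay lower so), it was picked after its values were seen, and on unscaled intensity its groups overlapped. With the offset of 50, the log2 difference of miR-17* was -0.090 (limma adjusted p = 0.310), while its scaled intensity was 1.27-fold lower in the geometric mean.

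In the RefSeq table, 3 more mature miRNAs carry 1 of the 2 seeds. MiR-519d and miR-526b* of the placental cluster on chromosome 19 have the miR-17 seed, and miR-4735-3p has the miR-18 seed. MiR-519d was detected on 2 control and 3 treated arrays and had a log2 difference of 0.048 with the offset (limma adjusted p = 0.583). Its scaled intensity was 1.67-fold higher in the geometric mean, with overlapping groups and values close to the background. The other 2 were each detected on 1 array, a treated one, and were not tested.

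Of the 604 tested probes outside the clusters with a value on all 6 arrays, the 5 with the profile most like the mean of the 8 members over the 6 arrays were miR-33a, miR-4502, miR-431*, miR-3907 and miR-764. Their Pearson correlations with it were 0.99, 0.98, 0.97, 0.97 and 0.95, on quantile-normalized log2 values. They share arrays and normalization with the members, they were picked as the highest of the 604, and no p is given. Among the members themselves, the correlation with the mean of the other members was 0.75 for miR-17 and 0.73 for miR-106a. For the rest it was lower, from 0.15 for miR-93 to 0.34 for miR-20b, so most members did not follow that mean closely.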

How the data were processed

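Single-colour arrays were read for 6 samples, 3 per group, 1 array each, from 500 ng of total RNA labelled with Cy5, per the labels' protocols. The platform, scanner and software are not given in the sources used here. The deposited columns, per the file headers, hold raw spot intensity, background-subtracted intensity, an average and a coefficient of variation (a ratio, not used) and globally normalized intensity, which matched the deposited series table for the 1711 probes with the same ID. Each array held 3136 spots. The authors' background was 1 constant per array and their normalization 1 factor per array.

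Raw intensity was corrected by normexp over all spots (offset 50). Control spots and outlier marks were then left out, the 1719 human probes were quantile normalized, and group differences were fitted by limma 3.58.1 (R 4.3.3) without further terms for the 625 probes that every array of the control group, of the treated group or of both detected. The Benjamini-Hochberg adjustment covered all 625. The 95% intervals use the moderated standard error. Scaled intensity is defined in the report. Median and 75th percentile scaling, as alternatives, used the 503 probes detected on all 6 arrays. The fits on the spike-ins, the scaled intensity, the authors' values and the unscaled background-subtracted intensity tested only those 503 probes. The fit without a filter tested all 1719 human probes. Fits that left out an array applied the detection rule to the arrays left. Precision is limited by the number of arrays. The steps were tested on simulated data.

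The members, lists and tests were chosen with earlier results of these data known. All 8 members are named. Of the rest, the tested miRNAs of the clusters or with the same seed, and the 5 most similar profiles, could be named. MiR-17* was shown per array after its values were seen. Alternatives changed the scaling, background, filter, variance model, weights and replicate block, or left out an array. Sequences and positions are RefSeq's. The array files name no build, and array names were matched to RefSeq arms by hand.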

Additional observations from a re-analysis of the deposited data

How the results depend on the processing

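The count of 0 of the 8 miRNAs past the threshold held in 19 of 22 alternatives. It was 3 without normalization, 1 without a filter and 1 with array weights (miR-106a for both), and 0 in all 6 fits that left out an array. The count over all tested probes was 6. It was 310 without normalization, 37 with median scaling, 245 with the 75th percentile and 10 with trend and robust. On the 503 probes detected on all 6 arrays, it was 20 on the spike-ins and 1 on the authors' values. It was 3 to 5 when 1 array was left out (3 if that was aristolochic acid replicate 2 or control replicate 1). Samples of the same replicate number had correlations of deviations of -0.14, -0.18 and 0.0077, and those of different numbers had -0.10 to 0.21. So few arrays cannot decide whether the numbers pair samples. With the replicate block 0 of the 8 and 4 of all tested probes passed, and miR-106a had an adjusted p of 0.178 in limma. Scalings added after seeing the data were the unscaled background-subtracted intensities, with a count of 129 of those 503 probes (all higher), and median and 75th percentile scaling over all human probes. The last 2 had counts of 82 (all higher) and 64 (62 higher).

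The median of the 8 was -0.12, and it was 0.074 with median scaling, 0.25 if not normalized, -0.0051 after 75th percentile scaling, 0.062 on the spike-ins, -0.21 on the scaled intensities, -0.34 on the authors' values, 0.32 unscaled, and 0.17 and 0.14 with the 2 scalings over all human probes. Leaving out an array gave -0.16 to -0.099. The median of the 5 other mature products, -0.14, was -0.019, 0.15, -0.099, 0.086, -0.18, -0.32, 0.34, 0.078 and 0.044 in the same order, and -0.10 with cyclic loess (leaving out an array, -0.15 to -0.13).

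Signs turned for single miRNAs. With median scaling, miR-20a had 0.096, miR-18a 0.031, miR-20b 0.076, miR-106b 0.10 and miR-93 0.11. With the 75th percentile, miR-20a had 0.017, miR-18b -0.0073, miR-106b 0.025 and miR-93 0.031. Without normalization, miR-17 had 0.15, miR-20a 0.27, miR-18a 0.20, miR-106a 0.055, miR-20b 0.25, miR-106b 0.28 and miR-93 0.28. On the spike-ins, miR-20a had 0.050, miR-18a 0.11, miR-20b 0.024, miR-106b 0.091 and miR-93 0.075. Unscaled, miR-17 had 0.17, miR-20a 0.31, miR-18a 0.36, miR-106a 0.054, miR-20b 0.28, miR-106b 0.35 and miR-93 0.33. Over all human probes, median scaling gave miR-17 0.079, miR-20a 0.19, miR-18a 0.13, miR-20b 0.17, miR-106b 0.20 and miR-93 0.21, and the 75th percentile gave 0.044, 0.16, 0.095, 0.14, 0.17 and 0.17. MiR-18b had -0.066 on the scaled intensities, -0.20 on the authors' values and -0.0025 with array weights. The cause was not tested. Leaving out an array gave -0.18 to 0.0059 for miR-20a, -0.038 to 0.056 for miR-18b, -0.32 to -0.14 for miR-17, -0.096 to -0.0054 for miR-18a, -0.38 to -0.28 for miR-106a, -0.18 to -0.019 for miR-20b, -0.19 to -0.015 for miR-106b and -0.31 to -0.0083 for miR-93.

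Among the 9 ratios, miR-20b to miR-93 had -0.050 on the scaled intensities and on the authors' values. Leaving out an array gave -0.16 to 0.29 for it, -0.21 to 0.11 for miR-17 to miR-93, -0.30 to 0.020 for miR-17 to miR-20a, -0.27 to 0.012 for miR-17 to miR-20b, -0.039 to 0.24 for miR-17 to miR-106a and -0.0083 to 0.033 for miR-20a to miR-20b. The other 3 ratios kept their sign in all 9 alternatives.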
